A study of Mus musculus with 12 samples.

Results

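The actin cytoskeleton and the contractile genes that serum response factor (SRF) controls were followed through adipocyte differentiation, in mouse cells with and without Acly. Acly encodes ATP citrate lyase, which makes acetyl-CoA from citrate in the cytosol. The members are a list of 33 genes named by function and not by a threshold on their values: actins, transgelins, calponins, caldesmon, tropomyosins, myosin chains, myosin light chain kinase, cross-linkers and adhesion proteins, desmin, and Srf with its cofactors Mkl1 and Mkl2. All 33 were found among the 24341 genes of the deposited table, and all 33 passed the filter on low values (1 FPKM or more in 3 or more libraries), which kept 11777 genes for testing. FPKM, the deposited unit, is the number of fragments scaled to the length of the transcript and to the mapped fragments of the library. Acta1, Actg2, Cnn1, Des and Myh11 passed that filter only through the groups in which they were high, so their calls are partly fixed by the filter.

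The libraries fall into 4 groups of 3. Aclyf/f preadipocytes, in which the Acly alleles are floxed, are the controls, and Acly-/- preadipocytes lack Acly; both were taken at day 0. Aclyf/f adipocytes and Acly-/- adipocytes were taken 4 days after an adipogenic cocktail that included rosiglitazone. All 4 groups are SV40-immortalised lines derived from C57Bl/6 mouse adipose tissue and kept in medium with 10% serum, which limits them as a model of primary cells. How Acly was deleted, and whether the 3 libraries of a group come from separate cultures, clones or animals, is not stated in the labels, so p-values measure the spread between these libraries, which may be technical. A difference carried by a line that was derived once cannot be told apart from the loss of Acly.

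Actin cycles between monomers and filaments. Filaments are bundled by alpha-actinins and filamin, stabilised by tropomyosins, tied to integrin adhesions by talin, vinculin and zyxin, and pulled by myosin once its light chains are phosphorylated. The cofactors MRTF-A and MRTF-B (genes Mkl1 and Mkl2) bind monomeric actin, and when monomers are used up they enter the nucleus, join SRF at CArG boxes in gene promoters and raise the transcription of actins and their partners. Preadipocytes are spread cells with stress fibres, and the loss of those fibres and of SRF activity is a known step in their conversion to round adipocytes.

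The libraries held an estimated 7094000 to 13526000 fragments, a 1.93-fold range, and 10977 to 11143 genes at 1 FPKM or more. Acly itself measured 84.9 to 89.5 FPKM in Aclyf/f and 11.9 to 12.5 FPKM in Acly-/- preadipocytes, and 722 to 814 against 11.02 to 13.2 FPKM in adipocytes. The targeted gene was thus low in all 6 libraries labelled Acly-/- and high in the other 6. Of 8 adipocyte markers, 7 were tested. With differentiation in both genotypes 22.5% of all genes rose, and so did all 7 of these markers. Plin1 and Cidec among them passed the filter only through the adipocytes, so their rises are partly fixed by it. Acly-/- preadipocyte library 3 stands apart in one respect, a Snord12 value of 54145 FPKM against the floor of 0.01 FPKM in the other 11 libraries. Counts of members without that library are given in the closing section. Markers of other cell types were low: 4 of 6 endothelial, 4 of 6 leukocyte, 6 of 8 skeletal muscle, 4 of 5 cardiac muscle and 6 of 7 epithelial markers stayed under 0.3 FPKM in every library. The remaining epithelial marker, Krt19, was higher without Acly in preadipocytes (1.13 on the log2 scale, 4.11 to 6.32 against 1.57 to 2.10 FPKM). Kdr of endothelium and Mylpf of skeletal muscle were lower there (-0.46 and -0.58). Kdr passed the filter only through the Aclyf/f preadipocytes.

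Without Acly most of the contractile genes were lower before differentiation, and 18 were higher after it. In preadipocytes 23 of the 33 members fell with Acly loss, 0 rose and 10 did not pass the test, at a limma adjusted p under 0.05. Of all 11777 genes tested 22.4% were called lower, 19.7% higher and 42.2% either way. The median change of the members was -0.52 on the log2 scale, beside -0.01 over all genes tested. In 27 members every Acly-/- preadipocyte library lay under every Aclyf/f one, in 0 above, and in 6 the groups overlapped, against 26.7% of all genes lying fully lower and 23.2% fully higher.

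In adipocytes the direction was the other way for most called members. Acly loss raised 18 and lowered 4, and 11 did not pass the test, where 25.6% of all genes were called higher, 29.2% lower and 54.8% either way. The members' median was 0.30, beside -0.02 over all genes. The Acly-/- and Aclyf/f adipocyte libraries did not overlap in 18 members that were higher and 6 that were lower, against 29.5% and 33.7% of all genes. The 18 that were higher are Acta1, Acta2, Actb, Actg1, Actn1, Cald1, Cnn1, Cnn2, Cnn3, Flna, Mkl1, Myh9, Myl12a, Tagln2, Tpm1, Tpm2, Tpm3 and Tpm4, and the 4 that were lower are Actg2, Csrp1, Myh10 and Myh11. Together, 13 members were lower in preadipocytes and higher in adipocytes, 3 were lower in both (Actg2, Csrp1 and Myh10), and 4 were called in neither (Actn4, Des, Mkl2 and Tln1). Over all genes tested these patterns took 5.33%, 7.63% and 27.8%.

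Differentiation lowered the group in both genotypes. In Aclyf/f cells 29 members fell, 3 rose and 1 did not pass, where 36% of all genes were called lower, 36.5% higher and 72.5% either way. In Acly-/- cells 28 fell, 4 rose and 1 did not pass, beside 31% lower, 30.4% higher and 61.4% either way among all genes. Every adipocyte library lay under every preadipocyte library for 29 members in Aclyf/f cells and above for 3, against 37.8% and 37.9% of all genes. In Acly-/- cells this held for 26 and 4 members, against 32.5% and 32.1%. The median change was -1.78 in Aclyf/f and -0.82 in Acly-/- cells, beside 0.00 over all genes in each. Of the members, 27 fell in both genotypes, as did 22.1% of all genes, and the 3 genes Acta1, Des and Myh11 rose in both, as did 22.5%. The change in Acly-/- cells minus that in Aclyf/f cells was tested directly: it was positive for 27 members, negative for 3 and not called for 3, where 23.7% of all genes were positive, 26.4% negative and 50.2% called either way. These comparisons share libraries (the preadipocytes and the adipocytes each enter several of them), so their counts are not independent of one another.

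**Figure D1:**
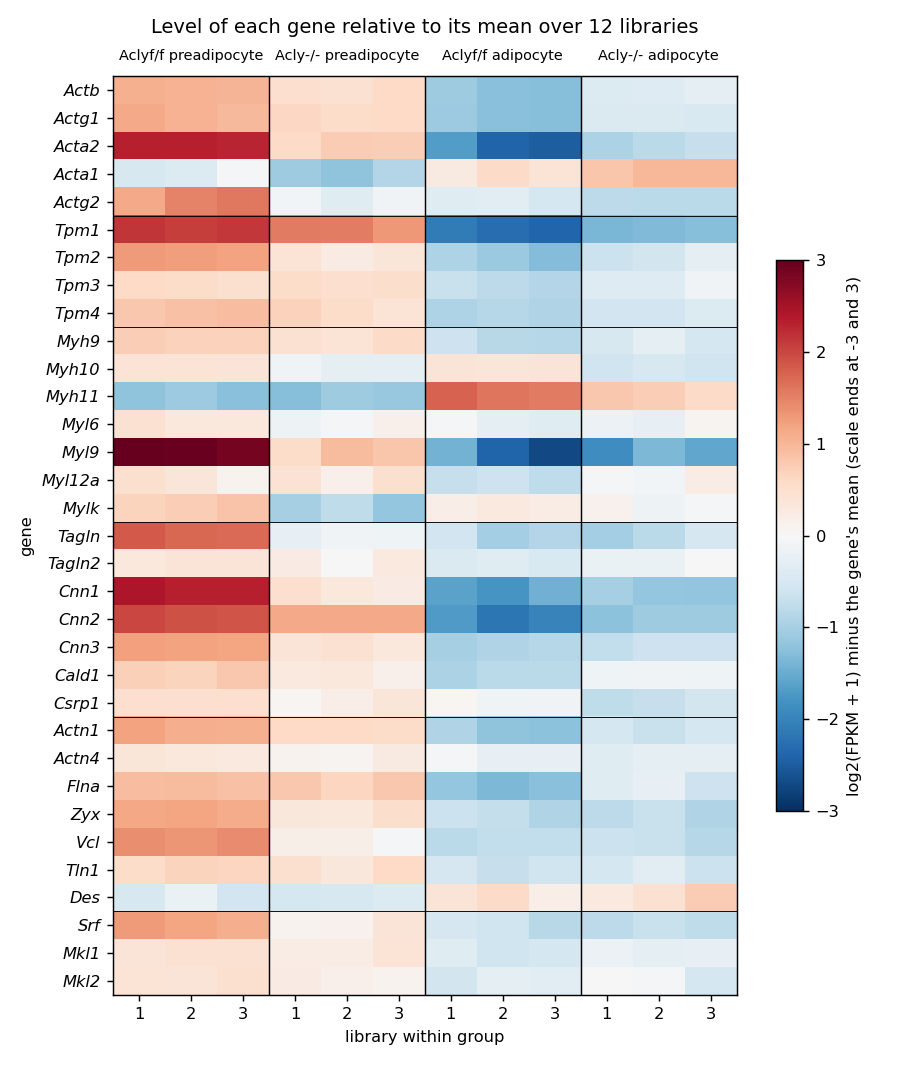
Heat map of the 33 members (rows) in the 12 libraries (columns), coloured by log2(FPKM + 1) minus the gene's mean over the libraries. Aclyf/f preadipocytes carry the highest values for most members, Acly-/- preadipocytes are lower, and both adipocyte groups are lower still, while Acta1, Des and Myh11 run the other way with differentiation.

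Markers of cell state moved alongside these changes. The summed level of the 8 adipocyte markers was 579.8 to 595 FPKM with Acly against 241 to 278 FPKM without it at day 0, and 10129 to 10868 against 5892 to 7328 FPKM at day 4. Both sums are mostly Fabp4, a fatty acid binding protein, with means of 507 and 201 FPKM at day 0 and 8835 and 6113 FPKM at day 4. At day 0, 3 of the 7 markers tested were lower without Acly and 4, Adipoq among them, were not called. At day 4, 6 of the 7 were lower and 1 was not called. Of all genes tested, 22.4% were lower at day 0 and 29.2% at day 4, and 19.7% and 25.6% were higher. The summed level of 8 preadipocyte and fibroblast markers was 2996 to 3175 against 4564 to 5758 FPKM at day 0, and 1061 to 1157 against 2383 to 2454 FPKM at day 4, with 5 of 5 tested markers higher in Acly-/- adipocytes. In Acly-/- preadipocytes 4 of the 5 were higher and Pdgfra, a receptor of fibroblasts and preadipocytes, was lower (-0.86 on the log2 scale, 123 to 140.2 against 64.0 to 77.1 FPKM). Vim took the largest part of the sum of this list, with means of 1624 and 2915 FPKM at day 0 and 873 and 1534 FPKM at day 4. The part of these shifts in the preadipocyte and adipocyte results was not tested, and in bulk libraries a different share of cells of a type and a different RNA level per cell cannot be told apart. Of 11 smooth muscle and pericyte markers outside the members, 5 were tested and all 5 fell with Acly loss in preadipocytes, beside 22.4% of all genes. The list summed to 28.6 to 29.7 FPKM with Acly and 15.4 to 17.0 FPKM without it. Of the 5, Synpo2 passed the filter on low values only through the Aclyf/f preadipocytes and Lmod1 mainly through them, so their falls are partly fixed by the filter. Mcam passed it only through the adipocytes. Its fall in preadipocytes rests on low levels, 0.395 to 0.484 FPKM with Acly and 0.0791 to 0.164 FPKM without it. In adipocytes that list summed to 26.2 to 28.5 FPKM with Acly and 8.51 to 11.4 FPKM without it. There 1 of 5 was lower (Mcam), beside 29.2% of all genes. Mcam made up most of that sum with Acly, with means of 19.4 FPKM with it and 1.07 FPKM without it. Myocd, the cofactor that defines smooth muscle, and Kcnmb1, Cspg4, Abcc9 and Kcnj8 stayed under 0.3 FPKM in all 12 libraries.

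Promoters of the members were read from RefSeq (GRCm38.p6) for the box that SRF binds. The CArG box is 10 bases long, an A and T run between a pair of C and a pair of G, and it reads the same on both strands. The 250 bases before each RefSeq start were searched. Of the 33 members 29 had a window there (Actb, Actg2, Tagln and Myh11 did not), and 7 of the 29, or 24.1%, held an exact box, beside 1.62% of the 27025 genes with a window and 1.47% of 32851 windows. Allowing at most 1 letter off, 14 of 29 held a box, beside 21.1% of all genes. A match describes the letters in the window and is not shown to be a bound site. The list was drawn up to hold genes that SRF controls, so an excess of boxes over all genes is partly fixed by that choice. The stretches around the 7 exact matches and around both near matches of Acta2, the abundant actin with the largest changes, are printed 5′ to 3′ on the strand of the gene, with the box in capitals and up to 40 bases on each side. The box began 73 bases before the start in Acta1 (chr8:123894799-123894888, minus strand), 90 in Actg1 (chr11:120348536-120348625, minus strand), 50 in Myl6 (chr10:128493010-128493099, minus strand) and 161 in Myl9 (chr2:156775263-156775352, plus strand). It began 56 bases before the start in Cnn2 (chr10:79988504-79988593, plus strand) and 227 in Vcl (chr14:20929148-20929220, plus strand). Srf carried a pair of boxes, 82 and 62 bases before its start (chr17:46556175-46556284, minus strand). In Acta2 the near matches began 84 and 34 bases before the start (chr19:34255374-34255497, minus strand).
Acta1: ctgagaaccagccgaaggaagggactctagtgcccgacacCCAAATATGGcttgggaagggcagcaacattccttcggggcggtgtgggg
Actg1: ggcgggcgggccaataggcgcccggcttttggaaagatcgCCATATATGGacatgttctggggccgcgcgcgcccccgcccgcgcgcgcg
Acta2: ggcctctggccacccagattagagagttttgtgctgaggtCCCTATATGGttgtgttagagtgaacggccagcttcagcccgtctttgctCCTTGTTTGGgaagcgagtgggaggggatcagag
Myl9: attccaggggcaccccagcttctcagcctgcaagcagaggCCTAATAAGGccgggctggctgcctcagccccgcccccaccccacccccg
Myl6: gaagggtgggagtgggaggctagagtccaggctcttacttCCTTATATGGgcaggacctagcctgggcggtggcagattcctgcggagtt
Cnn2: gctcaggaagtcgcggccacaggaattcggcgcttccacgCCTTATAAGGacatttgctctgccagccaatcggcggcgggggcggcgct
Vcl: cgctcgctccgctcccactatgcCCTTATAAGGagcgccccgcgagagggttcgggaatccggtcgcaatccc
Srf: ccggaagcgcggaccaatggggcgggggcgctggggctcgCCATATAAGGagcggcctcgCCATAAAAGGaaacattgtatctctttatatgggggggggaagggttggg

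Of the 7 members with an exact box, Acta1, Actg1, Cnn2, Myl9, Myl6, Vcl and Srf, all 7 fell with Acly loss in preadipocytes, beside 23 of all 33 members and 22.4% of all genes; the call of Myl6 was lost when either of 2 single libraries was left out. In adipocytes 3 of the 7 were higher without Acly (Acta1, Actg1 and Cnn2), beside 18 of all 33 members and 25.6% of all genes. The other 4 did not pass the test, where 54.8% of all genes were called either way. Members without an exact box also fell in preadipocytes. Among them are Tpm1 and Acta2, which hold a box 1 letter off, and Cnn1 and Tpm2, which hold none. The difference between members with and without an exact box was not tested.

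The cytoplasmic actins, Actb and Actg1, form the filaments of nearly every cell and were the highest members in preadipocytes. Actb (chr5:142903115-142906754, mm10, minus strand, coordinates of the whole gene from GENCODE M21 here and for the other genes) measured 2024, 2009 and 1966 FPKM in Aclyf/f and 1384, 1324 and 1467 FPKM in Acly-/- preadipocytes. At day 4, Actb stood at 461, 404 and 397 FPKM in Aclyf/f and 731, 747 and 796 FPKM in Acly-/- adipocytes. The Acly-/- libraries were all lower at day 0 and all higher at day 4, with no overlap at either time. Acly loss lowered Actb 1.44-fold in preadipocytes (log2 fold change -0.52, SE 0.08, adjusted p = 1.21e-04) and raised it 1.80-fold in adipocytes (log2 fold change 0.85, SE 0.08, adjusted p = 9.00e-07).

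Actg1 (chr11:120345690-120348542, minus strand) measured 1632, 1537 and 1444 FPKM in Aclyf/f and 1145, 1084 and 1120.0 FPKM in Acly-/- preadipocytes. At day 4, Actg1 stood at 348, 311 and 307 FPKM in Aclyf/f and 549.7, 547 and 544 FPKM in Acly-/- adipocytes. The order of the groups was that of Actb and none overlapped: -0.46 (adjusted p = 2.25e-04) in preadipocytes and 0.76 (adjusted p = 1.47e-06) in adipocytes, on the log2 scale, which holds for every change given without a unit. With differentiation Actb fell by 4.75-fold in Aclyf/f and 1.84-fold in Acly-/- cells, and Actg1 by 4.78-fold and 2.04-fold. Of 31-base words in the longest transcript, 57.1% in Actg1 and 35.3% in Actb also occur in other genes, the pseudogene Actg-ps1 among those for Actg1, so part of their level depends on how shared reads were divided.

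Acta2, the smooth muscle alpha-actin that marks myofibroblasts (chr19:34241090-34255590, minus strand), changed most among the abundant actins. Acta2 measured 407, 404 and 392 FPKM in Aclyf/f and 120.1, 135 and 133 FPKM in Acly-/- preadipocytes. At day 4, Acta2 stood at 24.4, 14.3 and 13.4 FPKM in Aclyf/f and 40.6, 45.1 and 48.8 FPKM in Acly-/- adipocytes. Each of the 4 groups kept apart from the others, and Aclyf/f adipocyte library 1 was high within its group. Acta2 was 3.10-fold lower without Acly at day 0 (log2 fold change -1.62, SE 0.16, adjusted p = 3.24e-06) and 2.58-fold higher at day 4 (log2 fold change 1.36, SE 0.16, adjusted p = 9.53e-06). Its fall with differentiation was 23.0-fold in Aclyf/f and 2.89-fold in Acly-/- cells, and the changes differed by 2.99 on the log2 scale (adjusted p = 2.66e-07). Of its words 1.496% are shared with another gene.

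The muscle actins Acta1 and Actg2 were low throughout. Acta1, skeletal muscle alpha-actin (chr8:123891769-123894751, minus strand), measured 0.821, 0.917 and 1.44 FPKM in Aclyf/f and 0.204, 0.0994 and 0.383 FPKM in Acly-/- preadipocytes. At day 4, Acta1 stood at 2.03, 2.79 and 2.34 FPKM in Aclyf/f and 3.49, 4.02 and 4.06 FPKM in Acly-/- adipocytes. It was the only actin tested that rose with differentiation, by 0.72 in Aclyf/f and 1.99 in Acly-/- cells (log2; adjusted p = 2.29e-04 and 2.21e-08), and the Acly-/- libraries were lowest at day 0 and highest at day 4. Acly loss gave -0.74 (adjusted p = 5.65e-04) in preadipocytes and 0.53 (adjusted p = 0.00435) in adipocytes. The adipocyte call of Acta1 was lost when 0.1 in place of 1 was added to FPKM before the log2 (0.68, adjusted p = 0.0615). Actg2, the enteric smooth muscle gamma-actin, measured 3.17, 4.31 and 4.63 FPKM in Aclyf/f and 0.778, 0.455 and 0.752 FPKM in Acly-/- preadipocytes. At day 4, Actg2 stood at 0.463, 0.488 and 0.298 FPKM in Aclyf/f and 0.0932, 0.0755 and 0.0780 FPKM in Acly-/- adipocytes. It was lower without Acly at both times, -1.59 (adjusted p = 3.82e-07) and -0.39 (adjusted p = 0.0179), and fell with differentiation in both genotypes (-1.82 and -0.61). The day 4 call was lost without Aclyf/f adipocyte library 1 (-0.36, adjusted p = 0.0566) or 2 (-0.35, adjusted p = 0.0674). Their lowest libraries rest on about 1.04 and 1.09 fragments, so small differences at these levels rest on little.

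**Figure D2:**
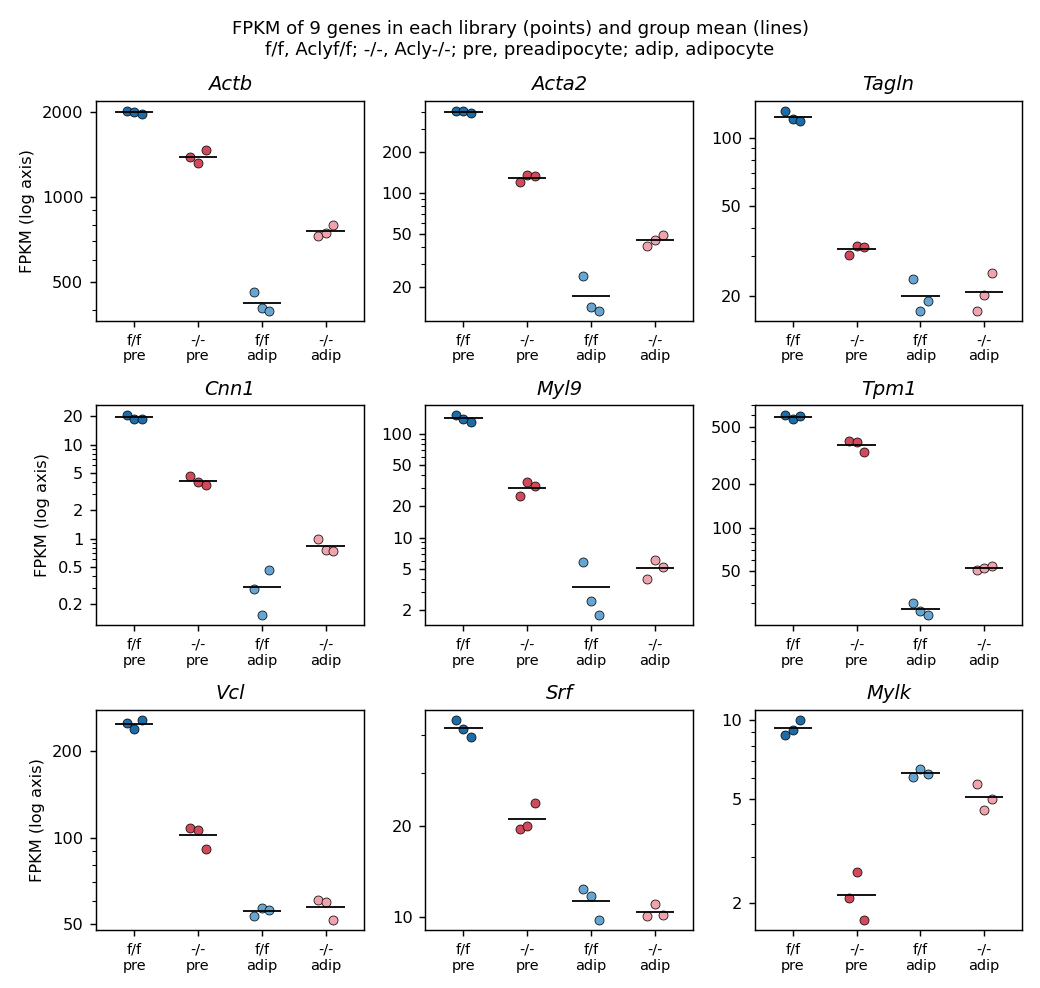
FPKM on a log axis for 9 members in each of the 12 libraries, by group; points are libraries and lines are group means. At day 0 the Acta2 points lie at 392 to 407 FPKM with Acly and 120.1 to 135 FPKM without it, and at day 4 at 13.4 to 24.4 FPKM with Acly and 40.6 to 48.8 FPKM without it.

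Tropomyosins lie along the actin filament and decide which myosins and cutting proteins can reach it. Tpm1 (chr9:67022590-67049406, minus strand), the form of stress fibres, measured 598, 568 and 589 FPKM in Aclyf/f and 394, 389 and 333 FPKM in Acly-/- preadipocytes. At day 4, Tpm1 stood at 30.3, 26.7 and 24.9 FPKM in Aclyf/f and 51.2, 53.0 and 54.3 FPKM in Acly-/- adipocytes. The groups did not overlap at either time. Tpm1 was 1.57-fold lower without Acly in preadipocytes (log2 fold change -0.66, SE 0.08, adjusted p = 3.30e-05) and 1.93-fold higher in adipocytes (log2 fold change 0.93, SE 0.08, adjusted p = 7.55e-07). Its fall with differentiation was 21.4-fold in Aclyf/f cells and 7.04-fold in Acly-/- cells. None of the 31-base words of Tpm1 is shared with another gene.

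Tpm2, the beta form of contractile cells, measured 126, 123 and 119 FPKM in Aclyf/f and 68.8, 60.4 and 66.4 FPKM in Acly-/- preadipocytes. At day 4, Tpm2 stood at 26.4, 23.0 and 20.3 FPKM in Aclyf/f and 32.5, 34.8 and 42.5 FPKM in Acly-/- adipocytes. It was separated in the same 2 directions, -0.90 (adjusted p = 1.61e-05) at day 0 and 0.63 (adjusted p = 2.13e-04) at day 4. Tpm4, a cytoskeletal form, measured 662, 694 and 712 FPKM in Aclyf/f and 605, 548 and 502 FPKM in Acly-/- preadipocytes. At day 4, Tpm4 stood at 196, 207 and 199 FPKM in Aclyf/f and 253, 251 and 280.3 FPKM in Acly-/- adipocytes. Its groups did not overlap either, with smaller changes of -0.32 (adjusted p = 0.00472) and 0.38 (adjusted p = 0.00114). Tpm3, the other cytoskeletal form, measured 230.1, 219.7 and 212 FPKM in Aclyf/f and 221, 215 and 216 FPKM in Acly-/- preadipocytes. At day 4, Tpm3 stood at 94.4, 87.1 and 81.4 FPKM in Aclyf/f and 116, 116 and 139 FPKM in Acly-/- adipocytes. Preadipocyte libraries of both genotypes overlapped for Tpm3 (-0.02, adjusted p = 0.869), and the Acly-/- adipocytes were higher (0.49, adjusted p = 2.17e-04). All 4 fell with differentiation in both genotypes, as did 22.1% of all genes. Of the Tpm3 words 70.4% occur in other genes, Tpm3-rs7 among them.

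Non-muscle myosin II pulls on the filaments, with Myh9 and Myh10 as heavy chains, Myh11 as the smooth muscle heavy chain and Myl9, Myl6 and Myl12a as light chains. Myl9, the regulatory light chain of contractile cells (chr2:156775420-156781658, plus strand), measured 152, 141 and 132 FPKM in Aclyf/f and 25.4, 34.2 and 31.4 FPKM in Acly-/- preadipocytes. At day 4, Myl9 stood at 5.78, 2.45 and 1.78 FPKM in Aclyf/f and 3.98, 6.06 and 5.17 FPKM in Acly-/- adipocytes. The preadipocyte groups were far apart, while Aclyf/f adipocyte library 1 lay among the Acly-/- adipocytes and the other 2 lay under them. Myl9 was 4.67-fold lower without Acly at day 0 (log2 fold change -2.19, SE 0.25, adjusted p = 1.11e-05) and did not pass the test at day 4 (log2 fold change 0.58, SE 0.25, adjusted p = 0.0620). Without that library the day 4 change was 0.96 with an adjusted p of 0.000209. The fall with differentiation was 42.4-fold with Acly and 5.98-fold without it.

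Mylk, the kinase that phosphorylates the regulatory light chain (chr16:34784921-35002420, plus strand), measured 8.78, 9.17 and 10.0 FPKM in Aclyf/f and 2.10, 2.62 and 1.73 FPKM in Acly-/- preadipocytes. At day 4, Mylk stood at 6.06, 6.53 and 6.21 FPKM in Aclyf/f and 5.71, 4.56 and 5.002 FPKM in Acly-/- adipocytes. It was 4.34-fold lower without Acly in preadipocytes (log2 fold change -1.72, SE 0.11, adjusted p = 5.88e-08), and every Acly-/- adipocyte library lay under every Aclyf/f one without passing the test (log2 fold change -0.26, SE 0.11, adjusted p = 0.0591). Without Acly-/- adipocyte library 1 it passed (-0.33, adjusted p = 0.0356). Mylk was the 1 member called in opposite directions with differentiation: it fell in Aclyf/f cells (-0.51, adjusted p = 8.82e-04) and rose in Acly-/- cells (0.96, adjusted p = 4.44e-06).

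The heavy chains moved in different ways. Myh9 measured 312, 301 and 302 FPKM in Aclyf/f and 257, 247 and 278 FPKM in Acly-/- preadipocytes. At day 4, Myh9 stood at 121, 104 and 102 FPKM in Aclyf/f and 134, 152 and 128 FPKM in Acly-/- adipocytes. Its groups did not overlap at either time; the day 0 call was close to the threshold (-0.23, adjusted p = 0.0439) and was lost under 12 of the 23 alternatives tried for it, and the day 4 change was 0.34 (adjusted p = 0.00371). Myh10 ran from 39.4 to 39.9 FPKM in Aclyf/f and 24.2 to 27.1 FPKM in Acly-/- preadipocytes to 38.8 to 39.4 and 19.2 to 21.2 FPKM in adipocytes. It was lower without Acly at both times (-0.64, adjusted p = 5.57e-06, and -0.94, adjusted p = 8.11e-08), and differentiation in Aclyf/f cells left it at -0.02 (adjusted p = 0.792), the 1 member not called there.

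Myh11, whose protein drives smooth muscle contraction (chr16:14194535-14291372, minus strand), rose with differentiation, as Acta1 and Des did. Myh11 measured 0.105, 0.186 and 0.0582 FPKM in Aclyf/f and 0.0416, 0.204 and 0.157 FPKM in Acly-/- preadipocytes. At day 4, Myh11 stood at 7.67, 6.68 and 6.53 FPKM in Aclyf/f and 3.47, 3.20 and 2.76 FPKM in Acly-/- adipocytes. All 6 preadipocyte libraries were near zero and all 6 adipocyte libraries at 2.76 FPKM or more, with the Acly-/- ones all under the Aclyf/f ones. It rose with differentiation in Aclyf/f (log2 fold change 2.83, SE 0.10, adjusted p = 1.68e-11) and in Acly-/- cells (log2 fold change 1.87, SE 0.10, adjusted p = 3.15e-09), and was 2.21-fold lower without Acly at day 4 (log2 fold change -0.94, SE 0.10, adjusted p = 4.79e-06).

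Of the remaining light chains, Myl12a is regulatory and Myl6 essential. Myl12a measured 279, 257 and 217 FPKM in Aclyf/f and 269, 223 and 279 FPKM in Acly-/- preadipocytes. At day 4, Myl12a stood at 124, 129 and 118 FPKM in Aclyf/f and 191, 190.0 and 235 FPKM in Acly-/- adipocytes. Its preadipocyte groups overlapped (0.03, adjusted p = 0.836) and its adipocyte groups did not (0.72, adjusted p = 1.19e-04), and 31.3% of its words are shared, chiefly with its neighbour Myl12b. Myl6 ran from 625 to 698 FPKM in Aclyf/f and 454 to 561 FPKM in Acly-/- preadipocytes to 394 to 488 and 425 to 536 FPKM in adipocytes, lower without Acly at day 0 (-0.39, adjusted p = 0.0132) and uncalled at day 4 (0.11, adjusted p = 0.404). The day 0 call of Myl6 was lost without Aclyf/f preadipocyte library 1 (-0.34, adjusted p = 0.0508) and without Acly-/- preadipocyte library 1 (-0.32, adjusted p = 0.0532). It was also lost without the filter on low values (-0.39, adjusted p = 0.0574). The fall of Myl12a with differentiation in Acly-/- cells (-0.32, adjusted p = 0.0249) was lost without library 1 or 3 of the Acly-/- preadipocytes or library 1 or 2 of the Acly-/- adipocytes, at -0.28 to -0.26. It was also lost without the filter on low values (-0.32, adjusted p = 0.0915).

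Transgelin, calponins and caldesmon bind the sides of filaments and restrain myosin. Tagln, an early smooth muscle gene known as SM22 (chr9:45929619-45936058, minus strand), measured 132, 121 and 119 FPKM in Aclyf/f and 30.3, 33.1 and 32.7 FPKM in Acly-/- preadipocytes. At day 4, Tagln stood at 23.6, 17.1 and 19.0 FPKM in Aclyf/f and 17.1, 20.1 and 25.2 FPKM in Acly-/- adipocytes. It was 3.87-fold lower without Acly in preadipocytes (log2 fold change -1.92, SE 0.13, adjusted p = 9.02e-08), and the adipocyte groups overlapped (log2 fold change 0.06, SE 0.13, adjusted p = 0.730). The Tagln exons lie across Pcsk7 and Gm48529 on the other strand over 60.9% of their bases, and the handling of strand is not stated, so reads of these genes cannot be told apart. Pcsk7 itself was not called for Acly loss at either time and had means of 10.8 FPKM with Acly and 10.5 FPKM without it at day 0.

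Cnn1, calponin of smooth muscle (chr9:22099216-22109630, plus strand), measured 20.4, 18.9 and 18.8 FPKM in Aclyf/f and 4.61, 3.95 and 3.71 FPKM in Acly-/- preadipocytes. At day 4, Cnn1 stood at 0.293, 0.154 and 0.469 FPKM in Aclyf/f and 0.995, 0.762 and 0.740 FPKM in Acly-/- adipocytes. It was 4.73-fold lower without Acly at day 0 (log2 fold change -2.00, SE 0.11, adjusted p = 1.59e-08) and higher at day 4 (0.49, adjusted p = 0.00168), where its lowest library rests on about 4.95 fragments. Cnn2 (chr10:79988584-79996062, plus strand) measured 259, 245 and 239 FPKM in Aclyf/f and 142, 142 and 142 FPKM in Acly-/- preadipocytes. At day 4, Cnn2 stood at 18.9, 13.5 and 15.3 FPKM in Aclyf/f and 26.5, 29.9 and 30.1 FPKM in Acly-/- adipocytes. It moved the same way without overlap, -0.80 (adjusted p = 2.48e-05) and 0.83 (adjusted p = 9.45e-06), and fell 15.6-fold with differentiation in Aclyf/f and 4.93-fold in Acly-/- cells.

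Cnn3, the acidic calponin, measured 258, 254 and 249.8 FPKM in Aclyf/f and 144, 151 and 138 FPKM in Acly-/- preadipocytes. At day 4, Cnn3 stood at 54.4, 58.7 and 60.0 FPKM in Aclyf/f and 65.6, 70.7 and 71.0 FPKM in Acly-/- adipocytes. It was lower without Acly at day 0 (-0.81, adjusted p = 4.86e-07) and slightly higher at day 4 (0.26, adjusted p = 0.00435), with 40.8% of its words shared with other genes. The day 4 call of Cnn3 was lost after rescaling to the same FPKM sum (0.18, adjusted p = 0.128), also with Snord12 left out of the sum (0.18, adjusted p = 0.0675). Cald1, caldesmon, measured 326, 315 and 347 FPKM in Aclyf/f and 243, 247 and 219.5 FPKM in Acly-/- preadipocytes. At day 4, Cald1 stood at 102, 112 and 113 FPKM in Aclyf/f and 182, 185 and 181 FPKM in Acly-/- adipocytes. Its groups were separate at both times, -0.47 (adjusted p = 1.21e-04) and 0.74 (adjusted p = 1.29e-06). Among members with smaller changes, Tagln2 was uncalled in preadipocytes (-0.17, adjusted p = 0.126) and higher in adipocytes (0.30, adjusted p = 0.00916). Csrp1, a LIM protein of filaments, was lower at both times (-0.28, adjusted p = 0.0151, and -0.61, adjusted p = 4.04e-05), the first lost without Acly-/- preadipocyte library 1 (-0.21, adjusted p = 0.0677).

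**Figure D3:**
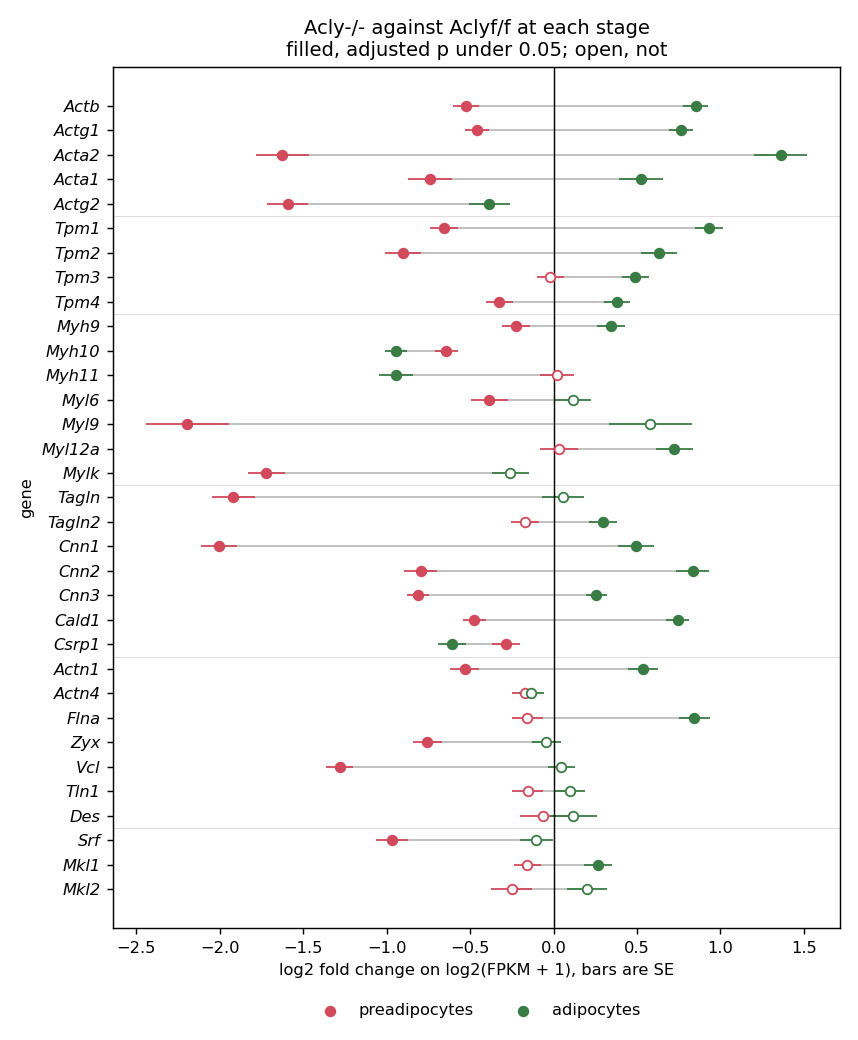
Log2 fold change with Acly loss (Acly-/- over Aclyf/f) in preadipocytes and in adipocytes for each of the 33 members, with standard errors; filled points passed the test. In preadipocytes no member passed with a rise and Myl9 (-2.19) lies lowest, and in adipocytes Acta2 (1.36) lies highest.

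The proteins that cross-link filaments or tie them to integrins were lower without Acly in preadipocytes in 3 of 6 cases: Vcl, Zyx and Actn1. Of all genes tested 22.4% were called lower there and 42.2% either way. Vcl, vinculin (chr14:20929398-21033676, plus strand), measured 251, 239 and 257 FPKM in Aclyf/f and 108, 107 and 91.4 FPKM in Acly-/- preadipocytes. At day 4, Vcl stood at 53.5, 56.8 and 56.0 FPKM in Aclyf/f and 60.5, 59.7 and 51.8 FPKM in Acly-/- adipocytes. The preadipocyte groups were far apart and the adipocyte groups overlapped: Vcl was 2.44-fold lower at day 0 (log2 fold change -1.28, SE 0.08, adjusted p = 5.72e-08) and uncalled at day 4 (0.04, adjusted p = 0.662). Ap3m1 lies on the other strand over 39.7% of the Vcl exon bases, and it stood at 14.5 FPKM in both preadipocyte groups.

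Zyx, zyxin (chr6:42349828-42360213, plus strand), measured 201, 205 and 195 FPKM in Aclyf/f and 114, 112 and 129.7 FPKM in Acly-/- preadipocytes. At day 4, Zyx stood at 57.6, 54.5 and 48.1 FPKM in Aclyf/f and 51.6, 56.2 and 47.3 FPKM in Acly-/- adipocytes. It followed Vcl, -0.76 (adjusted p = 1.27e-05) at day 0 and -0.04 (adjusted p = 0.682) at day 4. Actn1, the alpha-actinin of stress fibres, measured 65.9, 60.2 and 59.4 FPKM in Aclyf/f and 42.6, 43.0 and 41.5 FPKM in Acly-/- preadipocytes. At day 4, Actn1 stood at 14.5, 11.5 and 11.3 FPKM in Aclyf/f and 19.0, 17.1 and 19.0 FPKM in Acly-/- adipocytes. The groups did not overlap and the direction turned, -0.53 (adjusted p = 3.42e-04) and 0.54 (adjusted p = 2.06e-04). Actn4, its broadly expressed relative, was called at neither time (-0.17, adjusted p = 0.0894, and -0.13, adjusted p = 0.158), though without Acly-/- preadipocyte library 3 it was lower at day 0 (-0.23, adjusted p = 0.0312). With quantile normalization Actn4 was also called lower at day 0 (-0.21, adjusted p = 0.0197). After rescaling to the same FPKM sum it was called lower at both times (-0.26, adjusted p = 0.00744, and -0.21, adjusted p = 0.0171).

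Flna, filamin A, measured 209, 211 and 202 FPKM in Aclyf/f and 192, 172 and 193 FPKM in Acly-/- preadipocytes. At day 4, Flna stood at 48.6, 42.1 and 45.0 FPKM in Aclyf/f and 85.0, 91.5 and 70.2 FPKM in Acly-/- adipocytes. All Acly-/- preadipocyte libraries were lower without passing the test (-0.16, adjusted p = 0.193), and all Acly-/- adipocyte libraries were higher (0.84, adjusted p = 5.52e-06). Tln1, talin, measured 74.8, 81.1 and 79.0 FPKM in Aclyf/f and 70.8, 63.6 and 76.7 FPKM in Acly-/- preadipocytes. At day 4, Tln1 stood at 35.2, 30.9 and 32.9 FPKM in Aclyf/f and 34.8, 39.97 and 31.7 FPKM in Acly-/- adipocytes. It overlapped between genotypes at both times and was not called, at -0.16 (adjusted p = 0.197) and 0.10 (adjusted p = 0.388). With differentiation all 6 fell in both genotypes, as did 22.1% of all genes. The fall was 2.37-fold and 1.98-fold for Tln1 and 4.49-fold and 1.78-fold for Vcl, in Aclyf/f and Acly-/- cells.

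Srf, the transcription factor itself (chr17:46548329-46556175, minus strand), measured 44.9, 41.9 and 39.5 FPKM in Aclyf/f and 19.5, 20.0 and 23.8 FPKM in Acly-/- preadipocytes. At day 4, Srf stood at 12.3, 11.7 and 9.76 FPKM in Aclyf/f and 10.0, 10.97 and 10.1 FPKM in Acly-/- adipocytes. It was 2.00-fold lower without Acly in preadipocytes (log2 fold change -0.97, SE 0.10, adjusted p = 4.09e-06), with no overlap, and the adipocyte groups overlapped (-0.10, adjusted p = 0.395). Mkl1, the gene of MRTF-A (chr15:81012281-81190757, minus strand), measured 18.4, 19.6 and 19.6 FPKM in Aclyf/f and 16.5, 16.3 and 18.7 FPKM in Acly-/- preadipocytes. At day 4, Mkl1 stood at 10.7, 8.93 and 9.40 FPKM in Aclyf/f and 12.3, 11.5 and 11.7 FPKM in Acly-/- adipocytes. It overlapped at day 0 (-0.16, adjusted p = 0.141) and was higher without Acly at day 4 (0.27, adjusted p = 0.0137), a call lost without Aclyf/f adipocyte library 2 (0.22, adjusted p = 0.0698) or Acly-/- adipocyte library 1 (0.24, adjusted p = 0.0537). That call of Mkl1 was also lost after rescaling to the same FPKM sum (0.19, adjusted p = 0.0600), also with Snord12 left out of the sum (0.19, adjusted p = 0.0503). Mkl2, the gene of MRTF-B, measured 10.95, 10.7 and 11.5 FPKM in Aclyf/f and 9.62, 9.08 and 8.71 FPKM in Acly-/- preadipocytes. At day 4, Mkl2 stood at 5.11, 6.39 and 6.09 FPKM in Aclyf/f and 7.90, 7.66 and 5.29 FPKM in Acly-/- adipocytes. It was called at neither time (-0.25, adjusted p = 0.115, and 0.20, adjusted p = 0.184), but without Acly-/- adipocyte library 3, the lowest of its group, it was higher at day 4 (0.36, adjusted p = 0.00785). All 3 fell with differentiation in both genotypes, as did 22.1% of all genes. The log2 changes were -1.82 and -0.95 for Srf, -0.93 and -0.50 for Mkl1 and -0.82 and -0.37 for Mkl2 in Aclyf/f and Acly-/- cells. The fall of Mkl2 in Acly-/- cells was lost without Acly-/- preadipocyte library 1 (-0.33, adjusted p = 0.0561) or Acly-/- adipocyte library 3 (-0.21, adjusted p = 0.0809). Levels of these messages say nothing of where the MRTF proteins were. Des, desmin of muscle intermediate filaments, ran from 0.162 to 0.496 and 0.185 to 0.298 FPKM in preadipocytes to 0.968 to 1.57 and 1.10 to 1.89 FPKM in adipocytes. It rose with differentiation (0.80 and 0.98) and was uncalled for Acly loss.

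**Figure D4:**
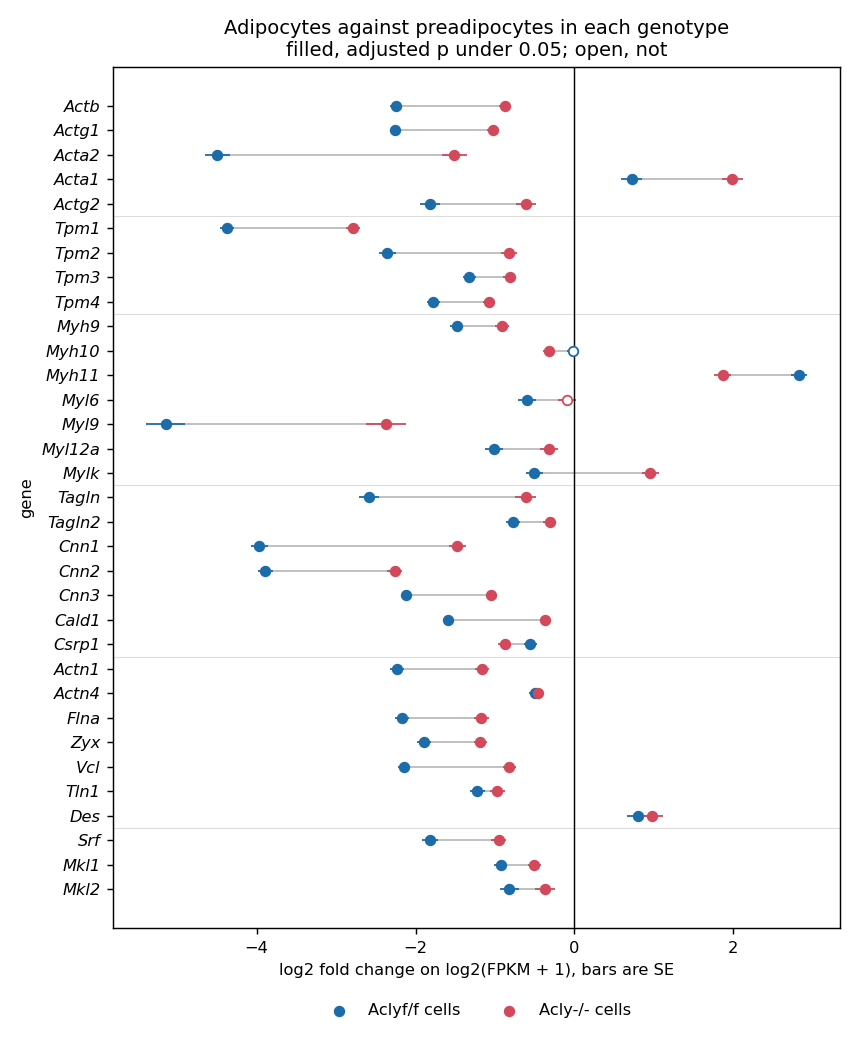
Log2 fold change with differentiation (day 4 over day 0) in Aclyf/f and in Acly-/- cells for each of the 33 members, with standard errors. Most members lie under zero in both and nearer to zero in Acly-/- cells; Myl9 lies at -5.15 and -2.37, and Myh11 at 2.83 and 1.87.

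The make-up of each family shifted as well, given as shares of the summed FPKM of the family, without a test. The summed FPKM of the 33 members was 9327 in Aclyf/f and 6501 in Acly-/- preadipocytes, and 2593 and 3571 in adipocytes (means, n = 3). Acta2 made up 10.2% ± 0.153 (SD, n = 3) of the 6 actins in Aclyf/f and 4.91% ± 0.386 in Acly-/- preadipocytes, then 2.25% ± 0.583 and 3.31% ± 0.225 in adipocytes. Tpm1 went from 36.2% ± 0.820 and 30.8% ± 1.16 of the 4 tropomyosins to 8.05% ± 0.596 and 11.2% ± 0.590, while Tpm4 took the largest share in every group, up to 59.3% ± 2.48. Myh10 held 25.4% ± 1.70 of the 3 myosin heavy chains in Aclyf/f and 12.4% ± 0.405 in Acly-/- adipocytes, and Myh11 4.49% ± 0.0817 and 1.95% ± 0.226. For Acta2, Tpm1, Tpm4, Myh10 and Myh11 the mean share in Acly-/- adipocytes lay between that in Aclyf/f adipocytes and that in Aclyf/f preadipocytes, as it did for Actg1, Acta1 and Myh9. It did not for Actb, Actg2, Actc1, Tpm2 and Tpm3.

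**Figure D5:**
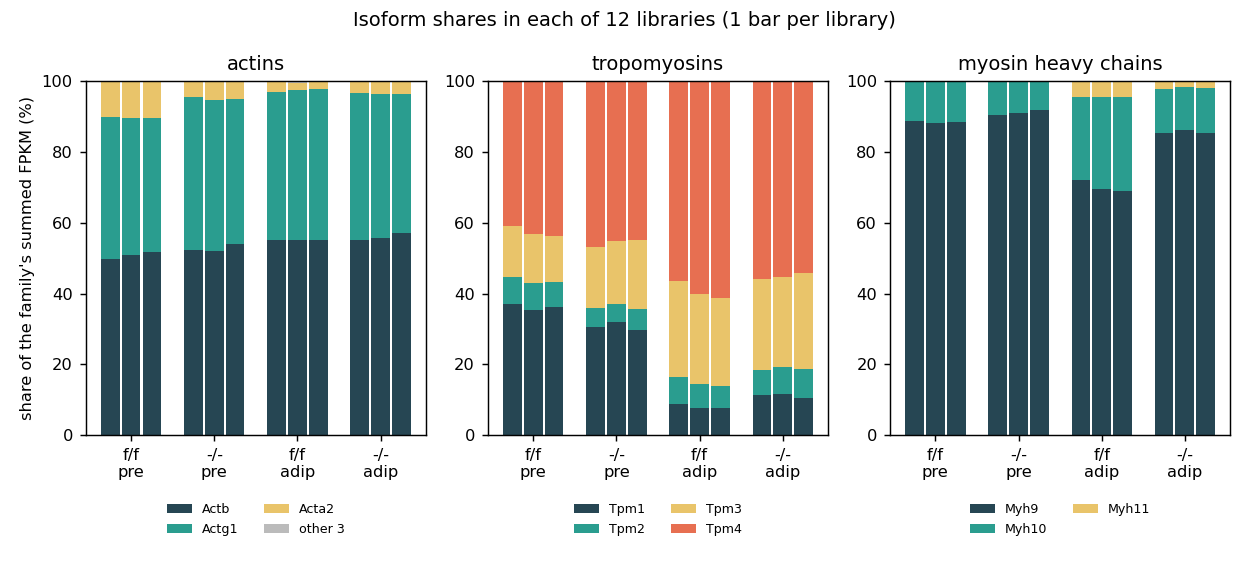
Share of each isoform in the summed FPKM of its family (actins, tropomyosins, myosin heavy chains), in percent, with 1 stacked bar for each of the 12 libraries. Tpm1 and Acta2 shrink from preadipocytes to adipocytes and Myh10 and Myh11 grow.

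Other genes of the pathway were taken from lists by role. Of 20 further targets of SRF with MRTF and their cofactors, 18 were tested. With Acly loss in preadipocytes 11 fell and 0 rose, beside 22.4% lower and 19.7% higher of all genes, with a median of -0.56. In adipocytes 10 rose and 3 fell, beside 25.6% higher and 29.2% lower of all genes, with a median of 0.50. In preadipocytes the largest falls were Lmod1, a leiomodin that seeds filaments (-1.99, and partly fixed by the filter on low values), and Itga1, an integrin subunit (-1.46). In adipocytes Ctgf, a matricellular protein (2.10), and Fhl2, a LIM cofactor (1.36), rose most, and Itga7 (-1.84) and Itga1 (-1.15) fell most. Part of this list, Lmod1, Synpo2 and Myocd included, is shared with the smooth muscle list. With differentiation 14 of the 18 fell and 2 rose in Aclyf/f cells, beside 36% and 36.5% of all genes, and 12 fell and 3 rose in Acly-/- cells, beside 31% and 30.4%.

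The ternary complex factors join SRF at immediate early genes, the arm that answers to mitogen signals. Of 11 genes that are either such targets or the factors themselves, 10 were tested. Acly loss lowered 4 and raised 1 in preadipocytes (median -0.12), so that 5 of 10 were called beside 42.2% of all genes. In adipocytes it raised 2 and lowered 1 (median 0.09), 3 of 10 beside 54.8%. Junb, a target (-0.73), and Elk1, a ternary complex factor (-0.67), fell most and Egr3 (0.81) rose in preadipocytes, and the factor Elk3 rose in adipocytes (1.00). The difference between this list and the MRTF list was not tested.

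Of 19 genes of integrin adhesions, 10 fell and 2 rose in preadipocytes (median -0.23), beside 22.4% and 19.7% of all genes, with Fermt2 (-0.72) lowest, and 10 rose and 3 fell in adipocytes (median 0.29), beside 25.6% and 29.2%, with Itga5 (1.05) and Itgb1 (0.76), subunits of the fibronectin receptor, highest.

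Low members rest on few fragments and shared or antisense sequence touches several others, as given beside each. Within groups, Aclyf/f adipocyte library 1 was the highest of its 3 for 20 of the 33 members and Aclyf/f preadipocyte library 1 for 19.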

How the data were processed

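RNA from 12 libraries in 4 groups of 3 was sequenced after Trizol extraction and TruSeq library preparation, per the labels' protocols. Tools listed in the submitters' processing notes are Cufflinks 2.2.1, Bowtie2 2.2.6 and bcl2fastq, and the build is mm10; roles and order are missing there. The deposited values are FPKM per gene, with 1 column per library and a floor of 0.01; the annotation, the filter behind the table and strand handling are not stated in the labels or header. FPKM holds no counts, so depth was estimated from the steps between low values, and intervals from counts are not given.

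Computed here: the 11777 genes that reached 1 FPKM in 3 or more libraries were put on a log2(FPKM + 1) scale. A limma model (3.58.1, R 4.3.3) of 4 group means with a variance trend was fitted to them, and the procedure was tested on simulated data. 12564 genes were not tested. Adjusted p-values are Benjamini-Hochberg over all genes tested in a contrast, called under 0.05. The added 1 shrinks the log2 fold changes of low genes; folds are ratios of mean FPKM. Per-library values are given for members called with an absolute log2 change of at least 1 in a contrast between 2 groups, and for Actb, Actg1, Srf, Mkl1 and Mkl2; from other lists at most the 2 largest rises and 2 largest falls per contrast are named. Members and lists were chosen with earlier results of these data known. Same-numbered Acly-/- preadipocyte and adipocyte libraries deviated together weakly (correlations 0.123, 0.147 and 0.124). Unless an alternative is named, the values printed come from the fit of 4 group means, which uses no pairs. A fit with the numbers as a block gave the same member counts in that contrast. Alternatives covered the pseudocount, filters, normalization, the variance trend, the block and leaving out each library. Figures and summaries used Python 3.11.15, numpy 2.4.6, pandas 2.3.3 and matplotlib 3.10.9. The result of 1 further gene list is not reported here.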

Additional observations from a re-analysis of the deposited data

Results flagged for a closer look

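In 30 of the 33 members the change with differentiation differed between Acly-/- and Aclyf/f cells by a direct test of the difference in the limma fit, where 50.2% of all genes did. Values are the log2 change in Acly-/- cells minus that in Aclyf/f cells. Among the actins the difference was 1.26 for Acta1, 2.99 for Acta2, 1.37 for Actb, 1.22 for Actg1 and 1.21 for Actg2. Tropomyosins gave 1.59 for Tpm1, 1.53 for Tpm2, 0.51 for Tpm3 and 0.70 for Tpm4. Among myosin chains and their kinase it was 2.77 for Myl9, 0.50 for Myl6, 0.69 for Myl12a, 0.57 for Myh9 and 1.46 for Mylk, and it was negative for Myh10 (-0.30) and Myh11 (-0.96).

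Transgelins, calponins and caldesmon gave 1.98 for Tagln, 0.46 for Tagln2, 2.497 for Cnn1, 1.63 for Cnn2, 1.07 for Cnn3 and 1.22 for Cald1, and Csrp1 was negative at -0.32. Cross-linkers and adhesion proteins gave 1.07 for Actn1, 1.33 for Vcl, 0.71 for Zyx and 1.00 for Flna. The regulators gave 0.87 for Srf, 0.42 for Mkl1 and 0.45 for Mkl2. The differences of Csrp1 and Mkl2 did not pass with the replicate block (adjusted p = 0.0520 and 0.0580) or when any of 8 and 9 single libraries, in that order, was left out. Nor did they pass without the filter on low values (adjusted p = 0.0838 and 0.126). That of Mkl2 also failed after rescaling to the same FPKM sum (0.46, adjusted p = 0.0874). That of Myh10 did not pass with quantile normalization (-0.20, adjusted p = 0.102) or rescaling to the same FPKM sum (-0.29, adjusted p = 0.0952). That of Myl6 did not pass without the filter on low values (0.50, adjusted p = 0.0709). The difference equals the change with Acly loss in adipocytes minus that in preadipocytes. A positive value can thus come from a lower level without Acly at day 0, a higher one at day 4, or both. Given adipocytes first, these changes were 0.06 and -1.92 for Tagln, 0.84 and -0.16 for Flna, and 1.36 and -1.62 for Acta2. Among the positive differences, Acta1 and Mylk rose with differentiation in Acly-/- cells.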

How the results depend on the processing

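Of 165 member changes (33 members in 5 contrasts), 143 kept their direction and their side of the threshold under every alternative that gave a value for them, 13 lost a call under at least 1 and 9 gained one; none reversed. Only a filter at a mean FPKM of at least 5 moved a count by over 1.5 times, since it removes low members: members lower with Acly loss in adipocytes went from 4 to 2, those higher with differentiation from 3 to 0 in Aclyf/f and from 4 to 1 in Acly-/- cells. Leaving out each library gave 20 to 24 members lower with Acly loss in preadipocytes, 17 to 19 higher in adipocytes, 28 to 29 lower with differentiation in Aclyf/f cells and 26 to 28 in Acly-/- cells. Among these fits, the one without Acly-/- preadipocyte library 3, singled out after seeing the data, gave 24 lower in preadipocytes.

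With the replicate block the counts were 22 lower in preadipocytes, 18 higher and 4 lower in adipocytes, 29 lower in Aclyf/f and 28 lower in Acly-/- differentiation, and 26 and 2 for the difference. Outside the Acly-/- differentiation contrast the correlations of same-numbered libraries ran from -0.29 to 0.13. In Aclyf/f differentiation they were 0.13, -0.03 and 0.09. Correlations this small do not settle which libraries are paired, and numbers in the text name libraries only. After rescaling to the same FPKM sum the median over all genes was -0.09 in both contrasts of Acly loss, from -0.01 in preadipocytes and -0.02 in adipocytes. This cut the share of calls that are rises from 46.8% to 34.5% in preadipocytes and from 46.7% to 36.4% in adipocytes; members then counted 0 higher and 26 lower, and 16 higher and 6 lower. With Snord12 left out of that sum, a setting added after seeing the data, the share of rises was 40.5% and 37.1%, the median in preadipocytes -0.05, and the members lower there 25. Called differences between the differentiation changes were lost for Csrp1 when any of 8 single libraries was left out and for Mkl2 when any of 9 was, and for both with the block. The lower call of Myh9 in preadipocytes was lost without any of 7 single libraries (adjusted p up to 0.135). The cause was not tested.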

Other observations

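Mcam and Itga7, chosen here after their values were seen, ran against most called members. This held with differentiation in both genotypes and with Acly loss in adipocytes. It did not hold for the smooth muscle and pericyte list that Mcam comes from. Of its 5 tested markers, 4 fell and 1 (Mcam) rose with differentiation in Aclyf/f cells, beside 36% and 36.5% of all genes. In Acly-/- cells 1 fell and 1 (Mcam) rose, beside 31% and 30.4%. With Acly loss in adipocytes only Mcam was called. In preadipocytes Mcam fell with Acly loss, as 23 of the 33 members did. Mcam, an adhesion molecule of pericytes, measured 19.9, 19.0 and 19.4 FPKM in Aclyf/f and 1.05, 1.14 and 1.02 FPKM in Acly-/- adipocytes, and 0.395, 0.484 and 0.414 FPKM in Aclyf/f and 0.164, 0.144 and 0.0791 FPKM in Acly-/- preadipocytes. Its rise from day 0 to day 4 was 3.83 (adjusted p = 8.11e-14) with Acly and 0.88 (adjusted p = 5.85e-07) without it, on the log2 scale. Itga7, the laminin receptor subunit of muscle, measured 26.9, 25.2 and 27.0 FPKM in Aclyf/f and 7.33, 6.39 and 6.31 FPKM in Acly-/- adipocytes, and 0.663, 0.590 and 0.341 FPKM in Aclyf/f and 0.787, 0.680 and 1.04 FPKM in Acly-/- preadipocytes. It rose by 4.17 in Aclyf/f and 2.07 in Acly-/- cells, the direction of the smooth muscle heavy chain Myh11. Mcam passed the filter on low values only through the adipocytes and Itga7 mainly through them. The rises of both are therefore partly fixed by the filter.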
